A study of Mus musculus with 75 samples.

Results

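In nuclei carrying the leptin receptor tag, 466 places in the mouse genome had both less open chromatin and less acetylation of histone H3 at lysine 27 (H3K27ac) than the remaining nuclei of the hypothalamus. Each place was a pair of overlapping regions, one from the ATAC-seq table and one from the H3K27ac table, sharing at least 1 bp on chromosomes 1 to 19. A pair was a member when the sort difference D was -0.5 or less in both assays and the mean signal was 10 or more in both. D is the mean of log2(signal + 1) over the 8 GFP-positive libraries minus that over the 8 GFP-negative libraries of an assay. The 466 pairs held 448 ATAC and 444 H3K27ac regions and made up 1.55% of the 30160 overlapping autosomal pairs with a mean of 10 or more in both assays. The same rule in the other direction gave 509 pairs (1.69%). Members were thus chosen by the sort difference in these same libraries, so every value of that difference is given as a description without a test. Taken alone, the threshold was passed by 5.06% of the 29497 ATAC regions and 4.32% of the 22899 H3K27ac regions of the pairs. Lower means lower than in the GFP-negative nuclei of the same experiment, since no earlier state of the cells was measured.

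All mice were LepRcre/+; SUN1-sfGFP/+ and at least 2 months old. Cre driven at the leptin receptor gene switches on a green nuclear envelope protein, so GFP-positive nuclei come from cells in which that Cre has been active and GFP-negative nuclei from all remaining cells of the pooled hypothalami. Mice were given food freely (Fed) or fasted for 36 h. Fasted mice received saline at 12, 24 and 34 h (Fast), leptin at 5 mg/kg at those 3 times (Lep24), or leptin at 34 h alone (Lep2). The titles of the Fed libraries carry the same injection code, SSS, as those of the saline-treated Fast group. Each assay had 16 libraries, 2 for every treatment and sort. The labels leave unsaid whether both came from separate pools, so a p-value reflects no more than the scatter of these libraries, and that scatter may be technical.

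ATAC-seq reads where an enzyme can cut DNA that is not packed in nucleosomes, as at active promoters and enhancers. H3K27ac is placed by acetyltransferases on the nucleosomes that flank such sites and is removed by deacetylases, and long stretches of it often cover genes that define a cell type. LepRb, the long form of the leptin receptor, is found on scattered groups of hypothalamic neurons that control feeding and energy use. The GFP-negative sort holds the other neurons together with glial and vascular cells. In bulk nuclei, fewer cells with a given element and less signal per cell cannot be told apart. The defining marker genes of these cell types were not analysed here.

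A set of 6 H3K27ac libraries was unlike the remaining 10. It comprised, for each sort, replicate 1 of the Fed, the Lep2 and the Lep24 group. Over the 22899 H3K27ac regions of the pairs, their median signal was 112.5 to 140 per library, against 166.7 to 180.9 in the other 10. Neither Fast replicate was among the 6. In ATAC, Fast GFP-positive replicate 2 was the most coarsely sampled library, with 9 distinct values below 20 over all 48634 ATAC regions, against 11 to 40 in the other 15.

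The difference was moderate at most members. The median D was -0.87 in both assays, a 1.83-fold lower signal in GFP-positive nuclei on the log2(signal + 1) scale, where the median over all regions of the pairs was 0.01 for ATAC and 0.10 for H3K27ac. A D of -1 or less was found at 155 of the 448 ATAC members (background 0.898%) and at 160 of the 444 H3K27ac members (background 0.991%), and 78 pairs reached it in both assays. The largest differences were 6.48-fold in ATAC and 5.66-fold in H3K27ac. ATAC was the lower of the paired D values in 227 of the 466 pairs. Across the members, Spearman's rho between the paired D values was 0.25 and Pearson's r was 0.25 (n = 466 pairs that share all 32 libraries, given as a description). Both values were limited to -0.5 or less by the rule, which narrows the range behind these coefficients.

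**Figure D1:**
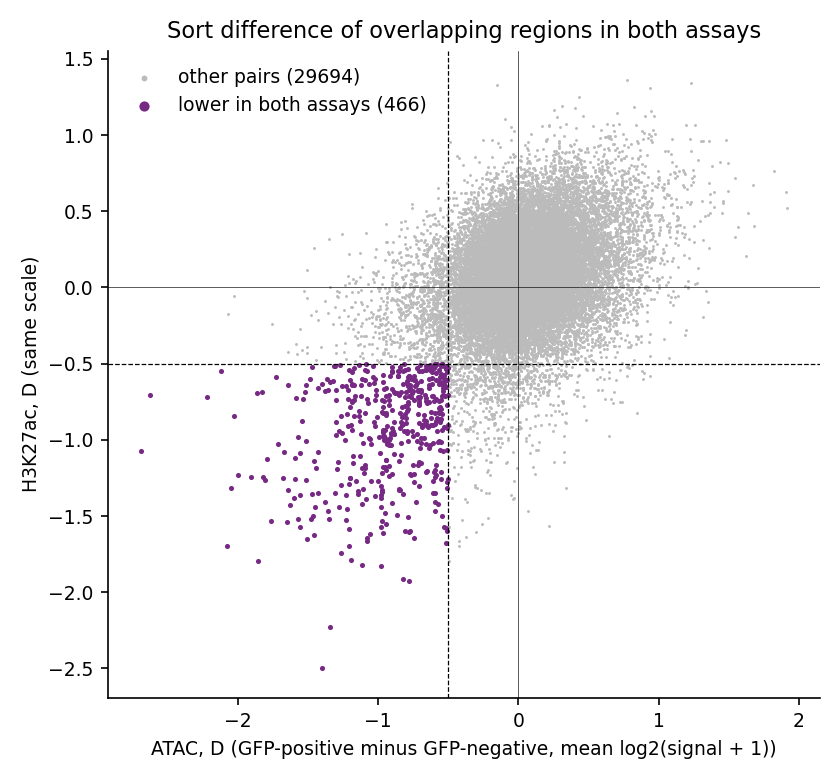
Each point is 1 of 30160 overlapping pairs of regions. The horizontal axis is D in ATAC and the vertical axis D in H3K27ac, both as differences of mean log2(signal + 1) between sorts, and dashed lines mark the threshold of -0.5. The 466 members fill the lower left corner and reach -2.70 in ATAC and -2.50 in H3K27ac.

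Low openness and low acetylation met at the same pairs far more often than opposite directions did. Of the 1538 pairs with an ATAC D of -0.5 or less, 466 (30.3%) were past the same threshold in H3K27ac and 11 (0.715%) were past it in the other direction. Of the 1269 pairs with low H3K27ac, 36.7% had low ATAC and 29 (2.29%) had high ATAC. The share with low H3K27ac was larger at the lowest ATAC values, with 160 of 274 pairs (58.4%) at an ATAC D of -1 or less and 40 of 53 (75.5%) at -1.5 or less. Over all 30160 pairs, H3K27ac was low at 4.21% and high at 6.36%, and ATAC was low at 5.10% and high at 6.86%. These shares use the D values of the rule and are a description.

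The members were lower in GFP-positive nuclei in every treatment. Their median ATAC signal was 8.6 and 9.7 in the 2 Fed, 8.7 and 8.4 in the 2 Fast, 7.8 and 9.9 in the 2 Lep2 and 7.3 and 13.1 in the 2 Lep24 GFP-positive libraries. In GFP-negative nuclei the same medians were 17.1 and 18.8 in Fed, 15.4 and 18.8 in Fast, 17.5 and 19.9 in Lep2 and 16.1 and 19.9 in Lep24. The lowest GFP-negative library thus lay above the highest GFP-positive one. The GFP-positive mean was under 10 at 258 of the 448 ATAC members, against 4.29% of all ATAC regions of the pairs, and 32 members were listed at 0 in at least 1 GFP-positive library. Of those listings, 15 were in Fast GFP-positive replicate 2, and no member was listed at 0 in a GFP-negative library (0 of 448).

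In H3K27ac the size of the difference depended on which libraries were read. The 5 GFP-positive libraries outside the set of 6 had medians of 68.1 to 81.45 over the members, and their 5 GFP-negative partners had 163.5 to 199.75. Within the set of 6 the medians were 94.15 to 119.6 in GFP-positive and 150.3 to 154.35 in GFP-negative libraries. The sorts were therefore apart in both sets, with a narrower gap in the 6. The median D over the members was -1.12 in the 10 libraries and -0.43 in the 6, and 442 and 178 of the 444 members were at -0.5 or less in each. By treatment the median H3K27ac D was -0.76 in Fed, -1.22 in Fast, -0.76 in Lep2 and -0.77 in Lep24, and Fast is the treatment without a library of the set. ATAC had -0.90, -0.88, -0.98 and -0.80 in the same order.

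**Figure D2:**
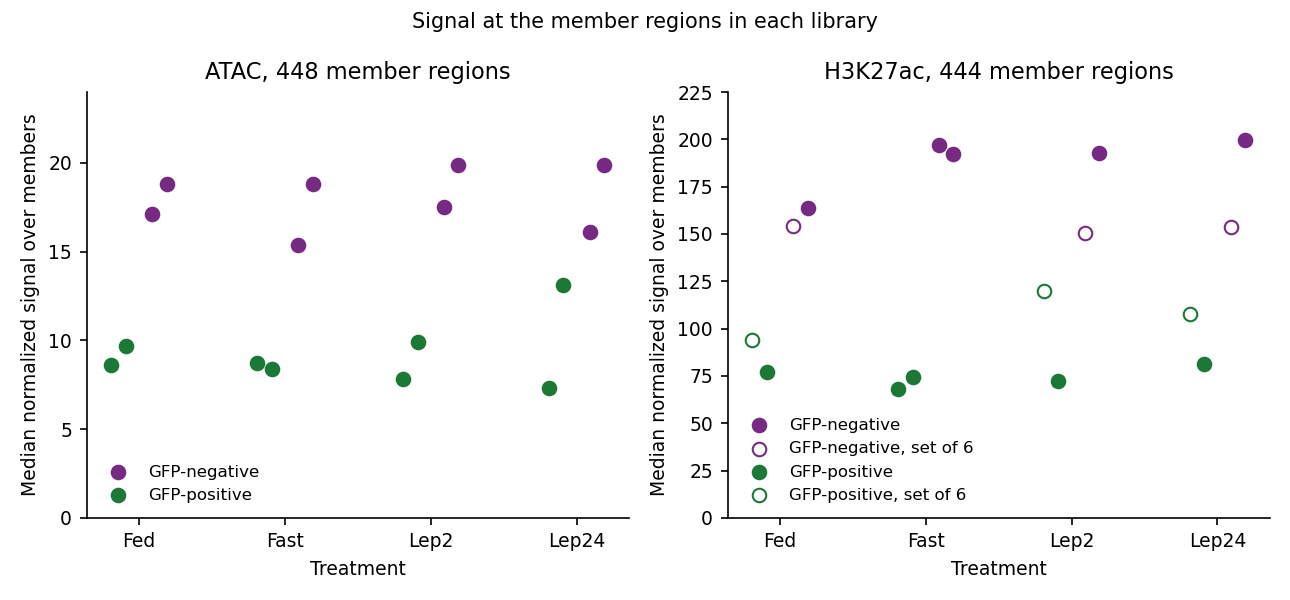
Median normalized signal over the member regions (vertical axis, linear from 0) in each library, by treatment (horizontal axis) and sort, with ATAC on the left and H3K27ac on the right. Open circles mark the 6 H3K27ac libraries that stood apart. All GFP-negative medians lie above all GFP-positive ones, and in H3K27ac the open circles of the 2 sorts are closer together.

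The direction held at most members in each of the 8 pairs of libraries compared. The rule favours this, since D is the mean of these 8 differences. When a GFP-positive library was compared with the GFP-negative one of its treatment and number, D was below 0 at 86.8% to 97.5% of the ATAC members in each of the 8 library pairs. Over all ATAC regions of the pairs these shares were 47.9% to 49.7%. For H3K27ac, D was below 0 at 99.8% to 100% of the members in the 5 library pairs outside the set. In the 3 pairs within it the share was 85.1% to 93.5%. Over all H3K27ac regions of the pairs the shares were 34.7% to 49.9% outside the set and 31.9% to 38.2% within it. All 8 library pairs were lower at 246 ATAC members (background 4.34%) and 327 H3K27ac members (background 7.28%), and 195 member pairs met this in both assays (background 1.08%). In all 4 treatments and both assays, 425 of the 466 pairs had a D below 0 (background 5.50%). At -0.5 or less in all of these were 146 of the 466 (background 0.484%).

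The ranges of the sorts were fully apart at fewer members. Every GFP-positive library was below every GFP-negative one at 89 of 448 ATAC members (background 0.729%) and at 173 of 444 H3K27ac members (background 1.71%). In the 10 H3K27ac libraries outside the set this held for 428 of the 444 (background 14.0%), and within the 6 for 278 (background 7.13%). Lower values in every library pair were found at 440 in the 10 libraries (background 19.4%) and at 330 in the 6 (background 12.0%). Both assays were without overlap at 36 member pairs, out of 38 among all 30160 pairs (0.126%).

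The rule was also applied to libraries of a single number, so that the other number had no part in the choice by D. The minimum of mean signal still used all 16 libraries of an assay. Separate pools are not stated for the 2 numbers, so they may not be independent, and the shares are given as a description. The libraries numbered 1 gave 364 pairs, of which 250 (68.7%) were past both thresholds in the libraries numbered 2, where 1.92% of all pairs were. In those libraries numbered 2 the median D of the 364 pairs was -0.76 in ATAC and -1.29 in H3K27ac, and 340 pairs were below 0 in both assays. The share of all pairs below 0 in both there was not computed. The libraries numbered 2 gave 578 pairs, and 250 of them (43.3%) were past both thresholds in the libraries numbered 1, against 1.21% of all pairs. Of the 8 H3K27ac libraries numbered 1, 6 are the set that stood apart, and the median H3K27ac D of the 578 pairs was -0.52 there.

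The 10 pairs with the lowest summed D lay on 8 chromosomes and show the range of the members. The first was a 652 bp ATAC region at chr7:17643436-17644087, which overlapped the 1543 bp H3K27ac region chr7:17643815-17645357 by 273 bp. Its H3K27ac signal was 8.5, 12.6 and 21.1 (lowest, median and highest of 8) in GFP-positive and 32.2, 97.6 and 153.4 in GFP-negative libraries. The groups did not overlap, and the difference, 5.66-fold, was the largest of any member in this assay. Its ATAC signal was 3.2, 7.9 and 21.1 against 10.8, 31.2 and 50.8, which overlapped. The SD of D over its 8 library pairs was 1.18 in ATAC and 1.23 in H3K27ac, the largest sum of both SDs among the members.

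The second pair sat in a 54364 bp stretch of H3K27ac, chr10:40168652-40223015, with its 602 bp ATAC region at chr10:40219483-40220084. H3K27ac was 209.3, 276.2 and 988.4 in GFP-positive and 978.7, 1168.7 and 1442.7 in GFP-negative libraries. Only the highest GFP-positive library, Lep2 replicate 1, reached the GFP-negative range, and it belongs to the set of 6. ATAC was 0, 5.55 and 18.4 against 16.3, 27.95 and 39, with the listed 0 in Lep2 GFP-positive replicate 2.

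The third pair had the largest ATAC difference of all members, 6.48-fold, at chr16:24282193-24282764. ATAC was 0, 4.6 and 13.1 in GFP-positive and 26.4, 30.95 and 50.5 in GFP-negative libraries, without overlap. H3K27ac over chr16:24279573-24284111 was 24.7, 33.15 and 100.7 against 67.2, 86.75 and 101.1. This overlap came from 1 GFP-positive library, Lep2 replicate 1, again of the set of 6. The fifth pair, at chr16:91269754-91270444 in the 18424 bp H3K27ac region chr16:91256205-91274628, was without overlap in both assays. Its ATAC signal was 3.9, 7.85 and 12.1 against 14.6, 20.95 and 26.5, and its H3K27ac signal 46.6, 86.7 and 292 against 395.1, 474.6 and 559.4, which is 4.69-fold lower.

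The other 6 of these 10 pairs had ATAC regions at chr13:81086821-81087436, chr6:85806164-85806613, chr18:68356514-68357065, chr10:83369471-83369914, chr3:107690585-107691174 and chr8:26162295-26162863. Their ATAC signal was 3.14-fold to 6.17-fold lower and their H3K27ac signal 1.63-fold to 3.47-fold lower. The pair on chromosome 18 combined the second largest ATAC difference of the 10 with the smallest in H3K27ac. The pair on chromosome 8 was the only other one of the 10, beside the fifth, without overlap in either assay, at 3.14-fold lower ATAC and 2.91-fold lower H3K27ac.

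**Figure D3:**
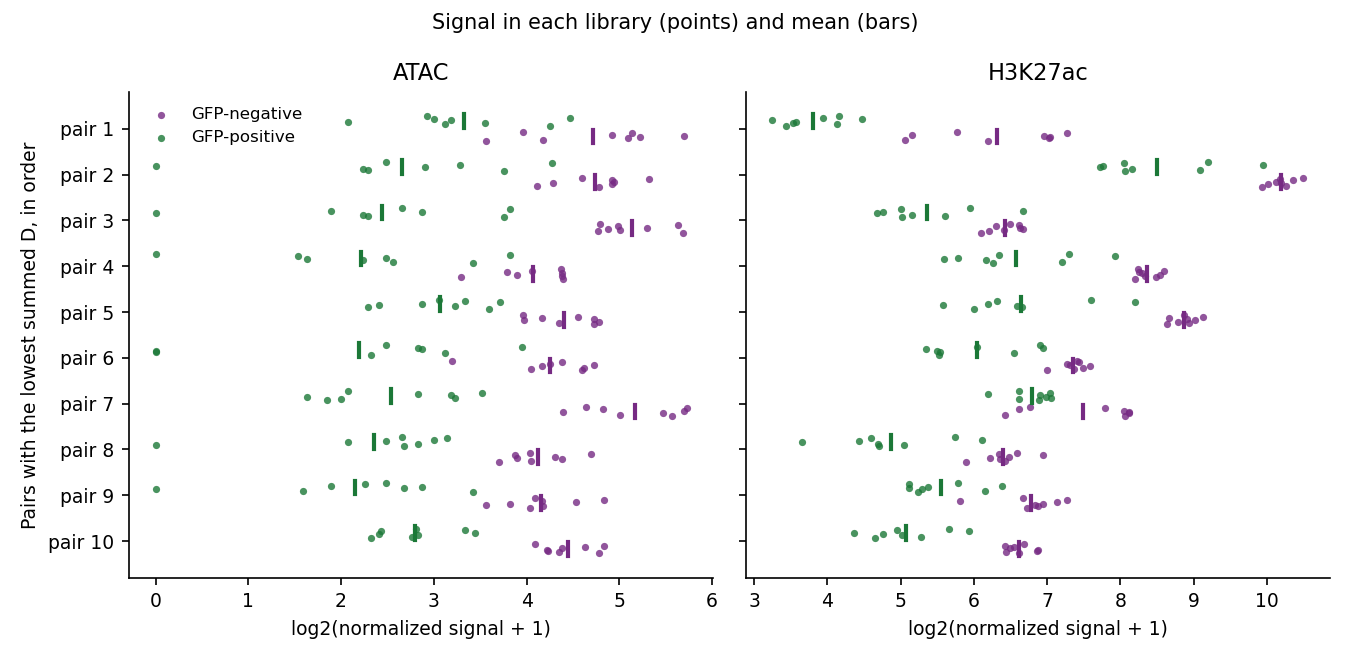
log2(normalized signal + 1) in each library (points) and its mean over the 8 libraries of a sort (bars), for the 10 pairs with the lowest summed D, in order from the top. ATAC is on the left and H3K27ac on the right, and a value of 0 stands for a signal listed at 0. The GFP-positive means lie below the GFP-negative means in every pair. In H3K27ac the ranges of the sorts overlap in pairs 2, 3, 7, 8 and 9, in pairs 2 and 3 through a single GFP-positive library.

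In the 6 member pairs with the strongest signal, H3K27ac was lower in all 8 library pairs. These pairs, ranked by the product of their mean signals, lay in H3K27ac regions of 16675 to 82763 bp. At chr11:61342557-61343786, in the longest of them (chr11:61312386-61395148), ATAC was 8.4, 13.15 and 16.4 in GFP-positive and 22.7, 28.25 and 37.3 in GFP-negative libraries. H3K27ac there was 1313.4, 1440.85 and 2195.2 against 1997.5, 2233.8 and 2487.3, so the ranges overlapped in H3K27ac only. The folds were 2.12 in ATAC and 1.41 in H3K27ac, and the H3K27ac D of -0.5002 was the closest of any member to the threshold. In both assays together the clearest of the 6 was chr1:74341637-74343324 in chr1:74334899-74351573. Its ATAC signal was 18.1, 27.5 and 34.5 against 41.2, 54.15 and 73.4 and its H3K27ac signal 261.7, 298.25 and 348 against 558.8, 759.65 and 895.1, without overlap in either.

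The other 4 of the 6 pairs had H3K27ac differences of 1.45-fold to 1.54-fold. They were chr2:165967973-165969670, chr9:106247069-106248157, chr18:75700983-75701484 and chr19:7208872-7210015, with ATAC differences of 1.95-fold, 2.03-fold, 2.30-fold and 1.43-fold. ATAC was lower in all 8 library pairs at all but the pair on chromosome 19, where it was lower in 6. The pair whose SDs of D over the library pairs had the smallest sum of all members was chr9:45295158-45295794 in chr9:45271642-45296916. ATAC there was 5.3, 7.35 and 8.7 against 18.2, 20.85 and 26.6, and H3K27ac 309.5, 352.95 and 513.8 against 525.4, 581.45 and 694.3. The SDs were 0.25 in ATAC and 0.19 in H3K27ac, and the sorts did not overlap in either assay.

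The threshold passed through a continuous range. The 3 pairs just inside it in ATAC had D of -0.5029, -0.5014 and -0.5003, the last at chr13:74659674-74660432, and the 3 just outside had -0.4989, -0.4986 and -0.4954, the first at chr4:62273729-62274844. In H3K27ac the values were -0.5022, -0.5010 and -0.5002 inside and -0.4993, -0.4966 and -0.4962 outside.

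Most members stood alone. When members with gaps of 50 kb or less were joined, the 466 pairs fell into 380 runs, of which 312 held 1 pair and none held more than 4. Of the 444 H3K27ac regions, 423 held 1 member ATAC region, 20 held 2 and 1 held 3. The last was the 23052 bp region chr1:137629259-137652310, with H3K27ac at 106.8, 121.3 and 351 in GFP-positive and 385.9, 490.3 and 566.5 in GFP-negative libraries, 3.03-fold lower and without overlap. Its ATAC members at chr1:137635828-137636599, chr1:137630822-137631594 and chr1:137649290-137650107 were 1.76-fold, 1.71-fold and 1.42-fold lower. These ATAC regions share 1 H3K27ac value and are not separate replicates of it.

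The largest runs held 4 pairs each, and there were 4 of them. The run at chr1:174269213-174297823 joined 4 ATAC and 3 H3K27ac regions, with ATAC 1.46-fold to 2.94-fold and H3K27ac 2.71-fold to 2.98-fold lower. In its centre, ATAC at chr1:174279807-174280912 was 5.3, 12.75 and 28.5 against 30.7, 40.65 and 52.5, without overlap. The run at chr14:26553721-26590276 had ATAC 1.51-fold to 2.48-fold and H3K27ac 2.54-fold to 3.80-fold lower, and 1 of its ATAC regions, chr14:26585275-26585808, lay across the border of 2 touching H3K27ac regions and so made 2 of the 4 pairs. The run at chr9:106194990-106290125 combined ATAC differences of 1.70-fold to 2.86-fold with H3K27ac differences of only 1.52-fold and 1.56-fold. The longest of the 4, chr17:84395993-84508588, joined 4 ATAC and 4 H3K27ac regions over 112596 bp, with ATAC 1.61-fold to 2.14-fold and H3K27ac 1.88-fold to 2.51-fold lower. Pairs in runs of 2 or more had a median H3K27ac D of -0.98 (n = 154) and pairs that stood alone -0.83 (n = 312). Their median ATAC D was -0.84 and -0.89.

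Member ATAC regions were short and weak beside those of all pairs, as were those of the pairs higher in both assays, and these differences were not tested. The member ATAC regions had a median length of 760.5 bp, against 1064 bp for all 29497 ATAC regions of the pairs and 743.5 bp for those of the pairs higher in both assays. Their median mean signal was 13.4 against 21.5 for all, while per 1000 bp it was 18.4 against 20.9. Members made up 3.05%, 2.13%, 0.795% and 0.212% of the pairs when the pairs were ordered by ATAC length in 4 equal groups, from shortest to longest. In 4 groups from the lowest to the highest mean ATAC signal the shares were 3.37%, 2.08%, 0.663% and 0.0663%. The pairs higher in both assays ran from 3.00% to 0.0796% over the same 4 groups.

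Member H3K27ac regions were long beside those of the pairs higher in both assays. Member H3K27ac regions had a median length of 7126.5 bp, against 5590 bp for all and 3813.5 bp for the regions of the pairs higher in both. Regions of 10 kb or more made up 35.4% of the member regions, 25.6% of all and 10.8% of those higher in both. In 4 groups from the shortest to the longest H3K27ac region, members were 1.62%, 1.59%, 1.83% and 1.14% of the pairs, whereas pairs higher in both were 3.37%, 2.02%, 1.23% and 0.133%. Signal per 1000 bp was 18.3 in member regions, 24.96 in all and 20.9 in those higher in both. The difference in length was not tested. Among the members, the 20 pairs in H3K27ac regions of 30 kb or more had a median H3K27ac D of -0.62, against -0.89 at 10 to 30 kb (n = 151), -0.85 at 2 to 10 kb (n = 250) and -0.84 under 2 kb (n = 45). Median ATAC D was -0.86, -0.85, -0.90 and -0.84 in the same order.

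The member ATAC region lay wholly inside its H3K27ac region in 415 of 466 pairs (89.1%), against 93.3% of all pairs. Its centre lay at a median of 0.32 of the H3K27ac length from the nearer edge, and in all pairs also at 0.32. Member H3K27ac regions touched another H3K27ac region in 333 of 444 cases, against 89.3% of all H3K27ac regions of the pairs and 75.2% of those of the pairs higher in both, and the difference was not tested. Members were found on all 19 autosomes, from 1.02% of the pairs on chromosome 5 to 2.38% on chromosome 16.

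H3K27ac was also lower in many regions beside the members. For ATAC the rule takes low regions that overlap low H3K27ac out of the neighbours, so the assays cannot be compared in this. The 411 H3K27ac regions that touched a member region had a median D of -0.72, and 68.1% of them were at -0.5 or less, against 10.6% of all 97053 autosomal H3K27ac regions with a mean of 10 or more (background). Regions 1 bp to 10 kb away had a median of -0.40 (n = 675), those 10 to 50 kb away -0.20 (n = 2256) and those 50 to 200 kb away -0.05 (n = 6725), where the median of all was 0.03. In the 10 libraries outside the set the touching regions had -0.95, and in the 6 libraries -0.34. Around the pairs higher in both, touching regions had a median of 0.32 (n = 556), so the neighbours lay on the side of the region they bordered in both directions.

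The 132 other ATAC regions with a mean of 10 or more inside member H3K27ac regions had a median D of -0.12 and ranged from -0.48 to 0.88, with 85 of them below 0. None could be at -0.5 or less, since the rule would then have made it a member. Outside the member H3K27ac regions, the 209 ATAC regions within 10 kb of a member ATAC region had a median D of -0.08, and 3 of them (1.44%) were at -0.5 or less, where 5.69% of all autosomal ATAC regions with this mean were. The rule removes low ATAC regions from this count wherever they overlap a low H3K27ac region.

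**Figure D4:**
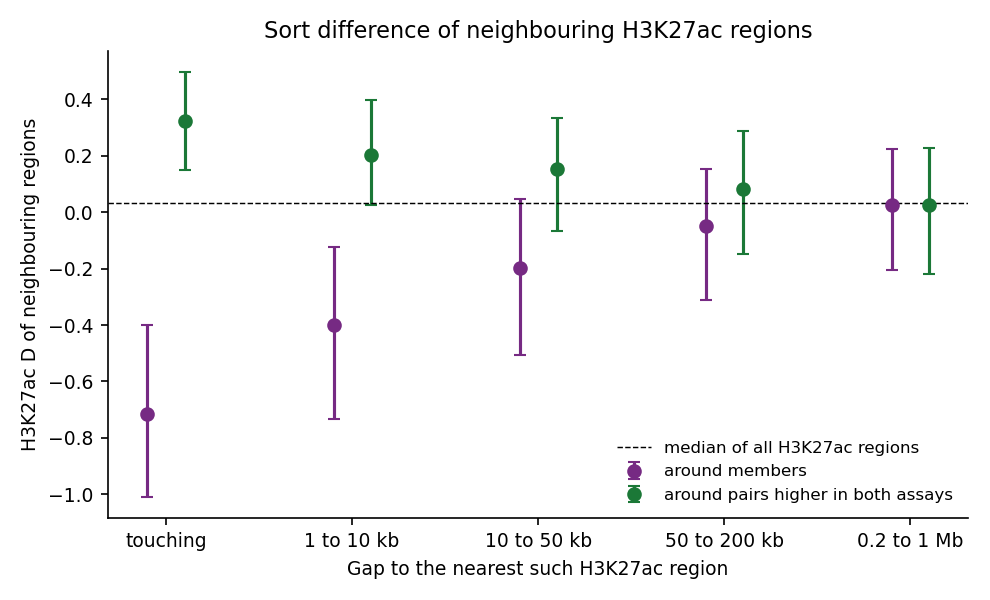
Median H3K27ac D (points) and its middle range from the lower to the upper quartile (bars) for H3K27ac regions by their gap to the nearest member region or to the nearest region of the pairs higher in both assays. The dashed line is the median of all autosomal H3K27ac regions. Around members the median runs from -0.72 in touching regions to 0.02 at 0.2 to 1 Mb.

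Fasting and leptin were then compared at the members, to see whether the treatments moved these regions in either sort. The treatment contrasts did not enter the rule and were tested with limma over all regions. No member passed when Fast was compared with Fed, or Lep2 or Lep24 with Fast, within either sort or in the difference between sorts (0 of 448 ATAC and 0 of 444 H3K27ac members, Benjamini-Hochberg adjusted p under 0.05 in limma). The background was 0%, with no call among the 43770 ATAC and 113731 H3K27ac regions tested. The 95% confidence interval of a member's log2 change within a sort reached a median of 0.91 to either side in ATAC and 0.78 in H3K27ac. For the difference between sorts it reached 1.28 and 1.10. These intervals are not adjusted for the number of regions tested, so with 2 libraries per group an adjusted call needed a larger change. In Lep24 against Fast in GFP-positive nuclei, a log2 change of 3.22 (SE 0.52) at chr6:85806164-85806613 was not called (limma adjusted p = 0.0773).

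At an unadjusted p under 0.05 in GFP-positive nuclei, ATAC members numbered 57 for Fast against Fed (12.7%, background 6.56%), 65 for Lep2 against Fast (14.5%, background 7.85%) and 40 for Lep24 against Fast (8.93%, background 6.70%). Of the 57, 29 were higher and 28 lower in Fast, and of the 65, 31 were higher and 34 lower in Lep2. The directions were thus nearly balanced, except that 30 of the 40 were higher in Lep24. The GFP-positive mean signal was under 10 at 258 of the 448 ATAC members, and its part in these counts was not tested. In GFP-negative nuclei 2, 1 and 2 members had such a p in the same 3 contrasts (background 1.97%, 1.5% and 1.49%). For the difference between sorts they were 27, 26 and 13 (background 3.95%, 3.98% and 2.98%). The count of 0 adjusted calls in GFP-positive nuclei did not hold without each library. Without Fast GFP-positive replicate 1, which leaves only the coarsest library as Fast, ATAC members passed in the 3 contrasts and in the difference between sorts. Some passed in Lep2 against Fast and in its difference between sorts without Lep2 GFP-positive replicate 1. In Lep24 against Fast, some passed without Lep24 GFP-positive replicate 1 or without the coarsest library, Fast GFP-positive replicate 2. Each of these fits leaves 1 library in a group, and regions outside the members passed as well. Whether the members passed more often than other regions was not tested.

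At this unadjusted p the H3K27ac members were close to the background or below it with all libraries. In the same order of contrasts they numbered 6, 16 and 10 of 444 in GFP-positive nuclei (background 1.91%, 3.27% and 2.65%). They were 20, 16 and 11 in GFP-negative nuclei (background 5.98%, 4.63% and 6.06%) and 8, 14 and 7 in the difference between sorts (background 2.36%, 2.37% and 2.17%). Without the set of 6 the counts were larger in 8 of the 9 contrasts. For Fast against Fed they were 63 in GFP-positive nuclei (background 5.54%), 91 in GFP-negative nuclei (background 9.21%) and 99 in the difference (background 6.07%). For Lep2 they were 37, 16 and 28 (background 4.81%, 8.06% and 7.35%) and for Lep24 67, 36 and 27 (background 6.0%, 14.7% and 7.71%). In that fit Fed, Lep2 and Lep24 have 1 library per sort, assumed to vary like those of Fast.

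The ATAC member with the smallest p in all 3 GFP-positive contrasts was chr6:85806164-85806613. It was listed at 0 in both Fast libraries, at 7.7 and 4.0 in Fed, at 6.1 and 6.3 in Lep2 and at 4.6 and 14.5 in Lep24. The Fast libraries thus lay below all others of this sort, but its limma adjusted p was 0.282 against Fed, 0.165 for Lep2 and 0.0773 for Lep24. In GFP-negative nuclei the same region carried 17.0 and 23.6 in Fast, inside the range of 8.2 to 25.4 of the other libraries. H3K27ac around it, at chr6:85799688-85808423, was 44.0 and 45.6 in the Fast GFP-positive libraries, 92.9 and 44.9 in Fed, 121.7 and 39.5 in Lep2 and 118.2 and 65.0 in Lep24. The values over 90 all came from the set of 6, and the others lay between 39.5 and 65.0.

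In H3K27ac the members with the smallest p had adjusted values from 0.714 to 1. For Fast against Fed in GFP-positive nuclei it was chr2:21190969-21192207, at 24.0 and 28.1 in the Fast libraries beside 13.0 and 10.9 in those of Fed, higher by 1.06 on the log2(signal + 1) scale (SE 0.33, limma adjusted p = 0.985). For Lep2 against Fast it was chr9:21053326-21057282, at 86.3 and 30.7 against 21.9 and 17.8. Here the higher Lep2 value, 86.3, came from the set of 6, as did the 60.8 beside 26.2 in Lep24. For Fast against Fed in GFP-negative nuclei it was chr11:3383925-3384427, with Fast values of 49.6 and 49.0 beside Fed values of 5.8 and 25.4 (adjusted p = 0.716 in limma). The lower Fed value again belonged to the set.

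As a group, the H3K27ac members had median differences of opposite sign in the sorts, and most of these were smaller without the set of 6. With all libraries the median log2 difference of Fast from Fed was -0.25 in the GFP-positive sort and 0.21 in the GFP-negative sort, and the median difference between sorts was -0.47. For Lep2 against Fast these medians were 0.31, -0.18 and 0.46, and for Lep24 against Fast 0.31, -0.13 and 0.46. The SD between replicates of the members' median log2 signal, taken relative to that of all regions, was 0.26. It includes the difference between the set of 6 and the other libraries. No median within the GFP-negative sort was larger than this SD, nor was that of Fast against Fed in the GFP-positive sort. The medians over all regions tested were between -0.02 and 0.02. Without the 6 libraries, which leaves 1 library per sort for each treatment but Fast, the medians of the members were -0.09, 0.19 and -0.28 for Fast against Fed. They were -0.02, -0.02 and 0.01 for Lep2 and 0.10, 0.02 and 0.09 for Lep24. The medians under leptin were thus at most 0.10 from 0 outside the set. The median of fasting in GFP-negative nuclei, 0.19, rested on Fed replicate 2, in which the members' median was 163.5, against 196.85 and 192.5 in the Fast libraries. Lep2 and Lep24 share the Fast libraries as their control.

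The ATAC members had median changes close to 0 in most contrasts. The median difference of Fast from Fed was 0.01 in the GFP-positive sort and -0.05 in the GFP-negative sort. Against Fast, Lep2 had 0.03 and 0.11 and Lep24 0.15 and 0.06. In the difference between sorts the medians were 0.05, -0.10 and 0.08. The SD between replicates of the members' median log2 signal, taken relative to that of all regions, was 0.23, larger than each of these. The value of 0.15 rested on Lep24 GFP-positive replicate 2, whose median over the members was 13.1, against 7.3 in replicate 1. Relative to all regions, the median was -0.19 without replicate 2 and 0.51 without replicate 1.

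**Figure D5:**
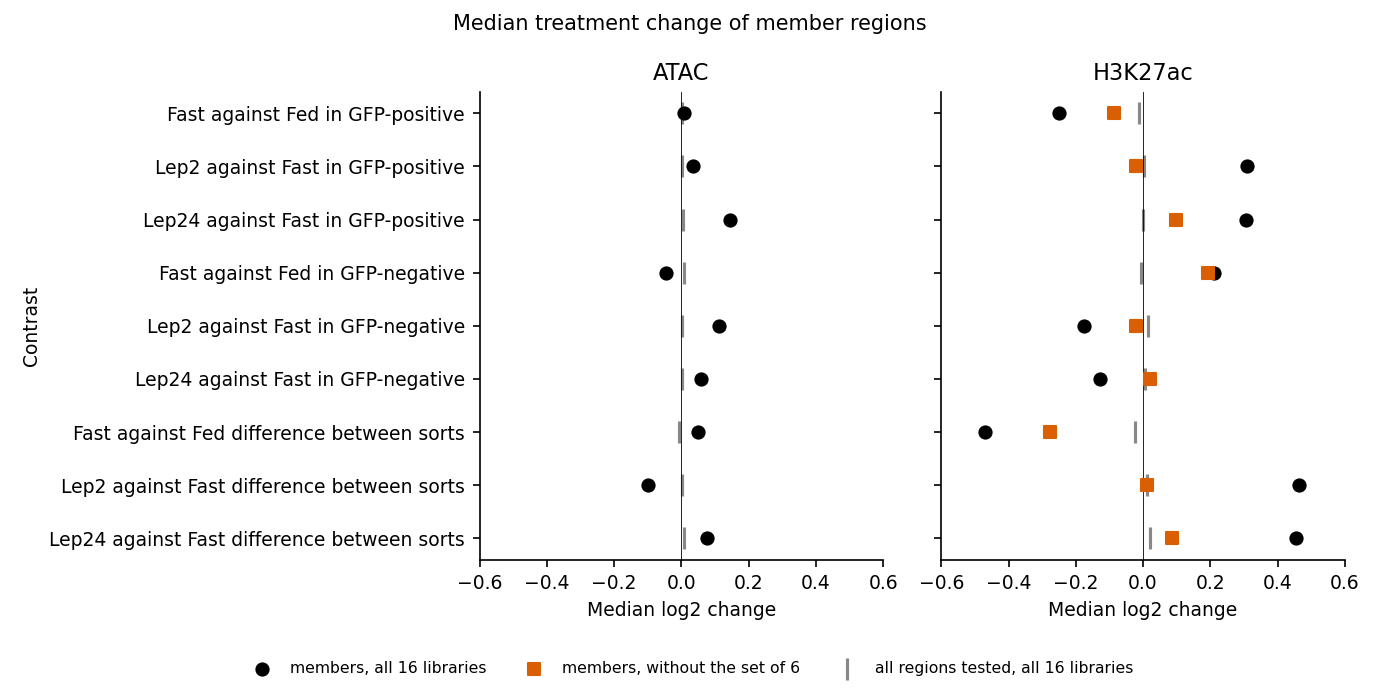
Median log2 change (horizontal axis) of the member regions in each treatment contrast (vertical axis), for ATAC on the left and H3K27ac on the right. Circles are the members with all 16 libraries, squares the H3K27ac members without the 6 libraries that stood apart, and grey bars all regions tested. The H3K27ac circles reach -0.47 and 0.46 in the difference between sorts, and the squares there lie between -0.28 and 0.09.

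The authors' deposited table lists 416 of the 444 H3K27ac members at an FDR under 0.05 between sorts, all lower (background 10.6%). For ATAC the authors' deposited table lists 50 of the 448 members, all lower (background 0.288%), and for single treatments 2 of the 322 members with an FDR in Lep2 (background 0.0164%) and 0 of 448 in Fast and in Lep24. These FDR values come from the same libraries that chose the members. The backgrounds of this paragraph count either direction over all 48634 ATAC or 126368 H3K27ac regions, whatever their mean signal and with or without an FDR. Within single treatments, the authors' deposited table lists 393 H3K27ac members in Fast (background 6.15%), 204 in Lep24 (background 1.88%) and 167 in Lep2 (background 1.32%), all lower, and Fast again has no library of the set of 6. In the deposited table's comparisons between Fast, Lep2 and Lep24, no member of either assay had an FDR under 0.05 (0 members). Over all regions, 0 of 48634 in ATAC had one, and in H3K27ac 1 of 126368 did, in only 1 of the comparisons.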

How the data were processed

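The deposited ATAC-seq and H3K27ac tables cover 16 libraries of sorted nuclei each, and in them the authors give a normalized signal for every region and library, per the file headers. How they normalized it is not stated in the labels or headers. Low values lie on a ladder of unequal steps, so counts were not recovered and depth is unknown. Further columns of the authors' deposited tables are log2 fold changes and FDR, a kind of p-value. The submitters' processing notes name, without roles, the build mm9 and DESeq2 1.16.1, MACS2, Bowtie2 2.2.6, Bowtie 1.2, HTSeq 0.6.0, STAR 2.5.2b and CASAVA 1.8. RNA and input samples were not analysed here. Regions are given by mm9 position counted from 1. Gene names and sequences were not used here, since the reference tables are of another build.

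Members, lists and tests were chosen with earlier results of these data known. Libraries were grouped by their labels. Treatments were tested on log2(signal + 1) with limma 3.58.1 in R 4.3.3 over all 8 groups, leaving out the lowest 10% of mean signal, with two-sided p-values adjusted by Benjamini-Hochberg over all regions tested. The fit was tested on simulated data. Overlaps used pandas 2.3.3 and numpy 2.4.6, and plots matplotlib 3.10.9. Regions were named by rank, as the 10 lowest in summed D, the 6 strongest, those with 3 or more ATAC members, the 3 runs with the most pairs (4 runs tied at 4 pairs, and the longest, outside the rule, was added after its values were seen), those at the threshold, the member with the smallest p in a contrast, and those with the least and largest spread. Not all regions under the rule on p are described. Alternatives were other pseudocounts, quantile normalization, other minima and overlaps, library weights, blocks, the set of 6 as a term or left out, and each library left out.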

Additional observations from a re-analysis of the deposited data

Results flagged for a closer look

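In groups of 8 libraries, 74 sets of values were examined for a sample far from the others, and 3 held one, where chance gives about 1 in 20. The median ATAC signal of the members in Lep24 GFP-positive replicate 2 was 13.1, above the 7.3 to 9.9 of the other 7 GFP-positive libraries. The ATAC region chr18:75700983-75701484 carried 34 in Fast GFP-negative replicate 2, the highest of that sort. The ATAC region chr2:165967973-165969670 carried 60.1 in Lep2 GFP-negative replicate 2, where the median of the sort was 35.6.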

How the results depend on the processing

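The number of pairs was 1133 with no minimum of mean signal, 69 with a minimum of 20, 78 at a D of -1 or less and 203 with only the 6 H3K27ac libraries, an alternative chosen after seeing the data. Under the other planned settings it ran from 336 with a pseudocount of 5 to 588 without the 6, and with each library left out from 444 to 495. The median D of the ATAC members was -0.66 with a pseudocount of 5, which shrinks low values by construction.

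With each library left out, ATAC members called in GFP-positive nuclei ran from 0 to 26 for Fast against Fed, 0 to 28 for Lep2 and 0 to 23 for Lep24. For the difference between sorts they ran from 0 to 12, 0 to 7 and 0 to 10. The highest counts were all without Fast GFP-positive replicate 1, which leaves replicate 2, the coarsest library, as the only Fast control of this sort. Regions outside the members were then called as well. A lone library is assumed to vary like the other groups. Some members were also called in Lep2 and its difference between sorts without Lep2 GFP-positive replicate 1. In Lep24, some were called without Lep24 GFP-positive replicate 1 or Fast GFP-positive replicate 2. With a pseudocount of 0.1, 1 ATAC member was called in each of the 3 GFP-positive contrasts and in the Lep24 difference between sorts. These were among 3, 5, 4 and 1 of the 43770 regions, in the order Fast, Lep2, Lep24 and Lep24 between sorts. Without the 6 libraries, an H3K27ac member was called in Fast against Fed in GFP-negative nuclei, as were regions outside the members. Fast alone gave the spread there. The cause of these calls was not tested.

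With the replicate number as a block, 1 ATAC member was called in Lep2 and 1 in Lep24 against Fast in GFP-positive nuclei. These were among 3 and 8 of the 43770 regions, and 0 members were called in all other contrasts. A block by library pair called 0. The numbers are not stated to pair libraries. Same-numbered libraries of 1 sort had correlated deviations of 0.10 to 0.16 in ATAC and of -0.16 to 0.01 in H3K27ac. Between sorts of 1 treatment they were 0.04 to 0.14 in ATAC, and in H3K27ac 0.45 in Fed, 0.50 in Lep2, 0.37 in Lep24 and 0.01 in Fast. Crossing the numbers of Fast GFP-positive in the H3K27ac block called 0 members.

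The median change of the members relative to all regions was -0.023 for Lep2 in GFP-positive nuclei and 0.016 and 0.081 for the Lep2 and Lep24 differences between sorts in H3K27ac without the 6 libraries. With each library left out it ran from -0.023 to 0.57 and from 0.17 to 0.78 for H3K27ac in Lep2 within GFP-positive nuclei and between sorts. For ATAC in Lep24 the ranges were -0.19 to 0.51 and -0.23 to 0.43. Depth is unknown, and 2 libraries per group limit every treatment contrast.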
